A study of Homo sapiens with 6 samples.

Results

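The 9 genes described here make or break down heme and were measured in human pancreatic cancer xenografts treated with the iron chelator deferasirox (DFX). They were the synthesis enzymes ALAS1, ALAD, UROS, UROD, CPOX, PPOX and FECH and the heme oxygenases HMOX1 and HMOX2. They were chosen by gene name among the spots that are not array controls, and every probe that carries one of these names was kept. This gave 9 of the 36337 gene names on the array and 12 of its 50599 probes, and all 12 probes passed the detection filter.

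The 6 tumors were grown from BxPC-3 cells, an established human pancreatic adenocarcinoma line, placed under the skin of young adult female BALB/c nu/nu mice, which lack a thymus and mature T cells but keep their own red cells, macrophages and other leukocytes. The 3 control tumors came from mice given the vehicle by mouth. The 3 DFX tumors came from mice given 200 mg/kg DFX by oral gavage, 3 treatments per week, for 21 days. All 6 tumors therefore share 1 cell line and 1 mouse strain, and each array holds 1 tumor, so the error given throughout is the spread between tumors. The probes are human. Signal from mouse stroma or blood enters only where a human probe also binds the mouse transcript. Because whole tumors were measured, fewer cells of a type and less RNA per cell cannot be told apart.

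Heme is an iron-bearing ring that serves as the active group of cytochromes, catalase and hemoglobin. Its synthesis starts in the mitochondrion, where ALAS1 joins glycine to succinyl-CoA in the step that sets the rate outside red cells, passes through cytosolic enzymes that build the ring, and ends in the mitochondrion, where ferrochelatase (FECH) inserts ferrous iron. Heme oxygenases open the ring and release iron, carbon monoxide and biliverdin. HMOX1 is the form induced by heme and oxidative stress and HMOX2 the constitutive form. Each needs electrons from the reductase POR. DFX binds ferric iron, so the comparison asks how the transcripts of the enzymes that consume and release iron stood after treatment.

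The array reads each gene through 60-base probes, and a few of them are shown because they determine what a gene's value covers. The ALAS1 probe, shown because it reads the first enzyme of the pathway, lies at chr3:52246277-52246336 on the plus strand of hg19 and holds a reading frame with no stop.
ALAS1: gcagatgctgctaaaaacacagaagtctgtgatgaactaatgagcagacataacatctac
The UROD probe spans chr1:45480655-45481044, and the PPOX probe lies at chr1:161140844-161140903, both on the plus strand. The UROD interval is 390 bases long for a 60-base probe, so that probe crosses a splice junction. The exon or UTR of the other probes was not looked up, because no annotation of this build was used here.

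UROS has 3 probes, and a pair of them are shown together because they overlap. They share 34 bases, in capitals, so their values are not independent readings.
UROS A_23_P35609: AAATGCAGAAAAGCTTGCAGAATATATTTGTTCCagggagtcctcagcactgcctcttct
UROS A_33_P3233565: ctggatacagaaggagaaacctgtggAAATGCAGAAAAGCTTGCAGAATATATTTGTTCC
The first spans chr10:127486690-127496016, an interval of 9327 bases that also crosses a junction, and the second chr10:127495983-127496042, both on the minus strand of hg19.

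Values are log2 intensities after quantile normalization of the 6 arrays, where a difference of 1 doubles the intensity. A fold change is the DFX mean minus the control mean on this scale. A probe was called at an unadjusted limma p under 0.05, the threshold the study used, with the Benjamini-Hochberg adjusted p over 31807 probes given beside it. At that threshold 8.41% of all tested probes were called in either direction, 3.46% higher and 4.95% lower with DFX. No probe passed after adjustment, whereas 2675 passed unadjusted, and the Kruskal-Wallis test gave 4927 probes unadjusted and 0 adjusted. An exact permutation test of a single probe cannot go below a two-sided p of 0.1 with 3 against 3 tumors, so calls rest on the spread that limma pools over probes. The shares of probes well above background were 53.9% to 56.5% on 5 arrays and 50.3% on that of DFX tumor 2. All 6 arrays lie on 1 slide, with the control tumors in slide row 1 and the DFX tumors in row 2, so slide row and treatment cannot be told apart.

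Of the 12 probes for the heme genes, 1 was called higher with DFX (HMOX1) and none lower. By gene, taking the brightest tested probe, 6 of 9 had a higher and 3 a lower mean in DFX tumors, where 47.6% of all tested genes were higher and 7.91% were called. In 1 of the 9, again HMOX1, all DFX tumors lay above all control tumors, as they did in 6.93% of all tested genes. By brightest probe the 9 genes had a median log2 fold change of 0.11, against -0.01 for all 23810 tested genes. The 7 synthesis genes ranged from -0.11 to 0.24 with none called. A single call among 9 genes is near the share called over all genes.

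**Figure D1:**
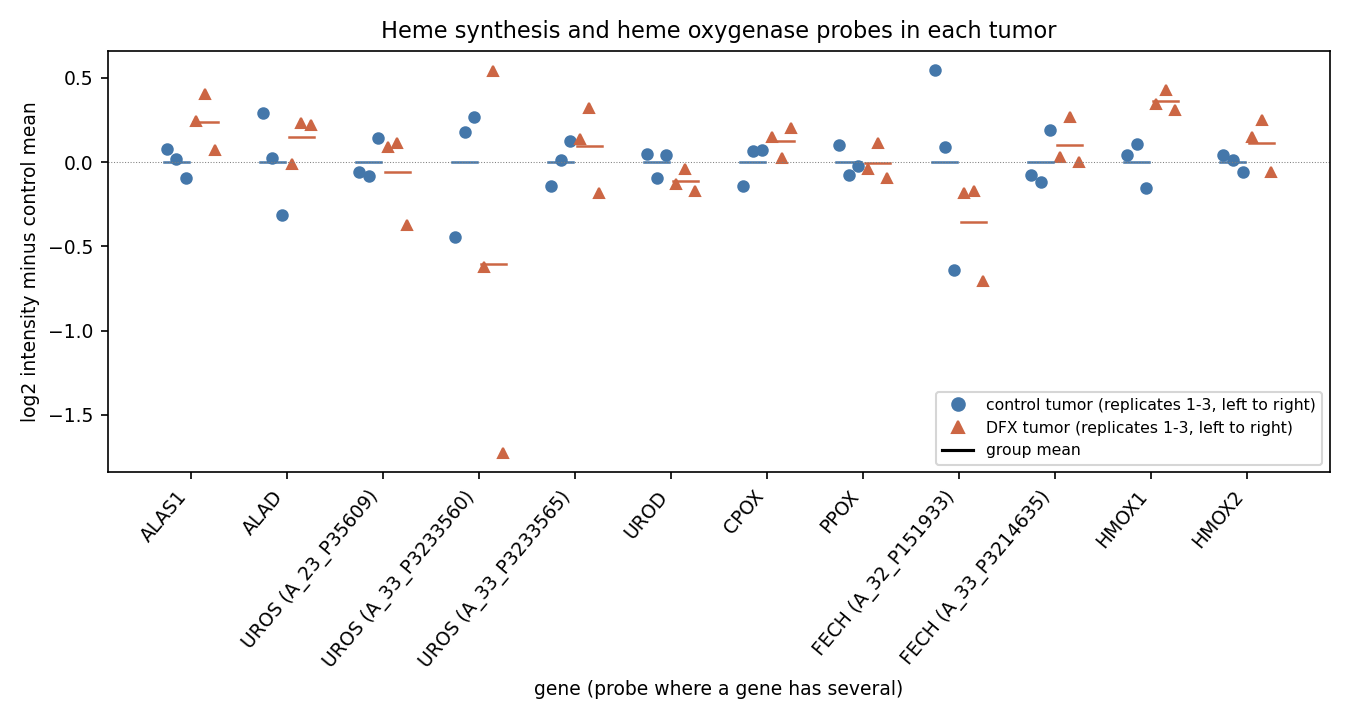
Log2 intensity of each heme probe in each tumor, as the difference from that probe's control mean (y axis), with control tumors as circles, DFX tumors as triangles and short lines for the group means (n = 3). The DFX tumors lie above all control tumors for HMOX1 alone among these 12 probes, and the UROS probe A_33_P3233560 and the FECH probe A_32_P151933, both dim, spread most.

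ALAS1, the first enzyme of the pathway, had the largest difference of the synthesis genes. Its level was 9.57, 9.51 and 9.40 in control tumors 1 to 3 and 9.74, 9.90 and 9.57 in DFX tumors 1 to 3. DFX tumors 1 and 2 lay above every control tumor, while DFX tumor 3 lay just under the highest control, at linear intensities of 759 and 761. The means were 9.496 ± 0.09 and 9.73 ± 0.17 (SD, n = 3), a log2 fold change of 0.24 (SE 0.126) with a 95% interval from -0.07 to 0.55, and it was not called (adjusted p = 0.651, limma). ALAS1 ranked 5207 by p among the 31807 probes. Without DFX tumor 3 the difference was 0.32 and was called at an unadjusted limma p of 0.0493, whereas it was 0.16 without DFX tumor 2 and 0.13 with median scaling, neither called.

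ALAD joins a pair of aminolevulinate molecules into porphobilinogen and is a zinc enzyme. Its probe (chr9:116149174-116149233, minus strand) read 9.77, 9.505 and 9.17 in control and 9.47, 9.72 and 9.70 in DFX tumors. All 3 DFX tumors lay within the range of the control tumors. The log2 fold change was 0.15 (SE 0.181), with a 95% interval from -0.30 to 0.59 (adjusted p = 0.834, limma). It turned to -0.01 without control tumor 3.

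UROS closes the tetrapyrrole ring. Its brightest probe, the one that crosses a junction, read 8.79, 8.76 and 8.99 in control and 8.93, 8.96 and 8.47 in DFX tumors. The overlapping probe read 8.38, 8.53 and 8.65 against 8.66, 8.84 and 8.34. DFX tumor 3 was the lowest of all 6 tumors on both. Their log2 fold changes were -0.06 (SE 0.168, 95% interval -0.47 to 0.35) and 0.09 (SE 0.163), with adjusted limma p values of 0.94 and 0.886. The probes had opposite signs, and each sign turned under some settings, so no direction is given for UROS. The third UROS probe, A_33_P3233560, was dim, and its levels were 4.35, 4.97 and 5.06 against 4.17, 5.34 and 3.07. It was well above background on the 3 control arrays and on 1 DFX array, and its difference of -0.60 (SE 0.571) had an adjusted limma p of 0.781. Its value rested on single tumors, being -1.16 and called without DFX tumor 2 but -0.04 without DFX tumor 3, and it was -0.12 with normexp background correction.

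UROD removes carboxyl groups from uroporphyrinogen and had the smallest SE of the 12 probes. It read 13.66, 13.51 and 13.65 in control tumors and 13.48, 13.56 and 13.43 in DFX tumors. The groups overlapped through DFX tumor 2, which lay above control tumor 2. The log2 fold change was -0.11 (SE 0.103), and its 95% interval of -0.37 to 0.14 left room for a modest difference either way (adjusted p = 0.77, limma). It stayed negative under all 18 alternative settings, from -0.22 to -0.08.

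CPOX and PPOX carry out the oxidation steps in the mitochondrion that lead to protoporphyrin. CPOX (chr3:98298313-98298372, minus strand) read 10.69, 10.90 and 10.91 in control and 10.98, 10.86 and 11.03 in DFX tumors. DFX tumors 1 and 3 lay above all controls and DFX tumor 2 below control tumors 2 and 3, and the difference of 0.13 (SE 0.116) had a 95% interval from -0.16 to 0.41 and an adjusted limma p of 0.775. PPOX read 10.63, 10.46 and 10.51 against 10.49, 10.65 and 10.44. Its groups had almost the same mean, differing by -0.01 (SE 0.112, 95% interval -0.28 to 0.27, adjusted p = 0.991, limma).

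FECH inserts iron into protoporphyrin and itself carries an iron-sulfur cluster. Its brighter probe (chr18:55215570-55215629, minus strand) read 6.98, 6.94 and 7.25 in control and 7.08, 7.32 and 7.06 in DFX tumors. The groups overlapped, and the log2 fold change was 0.10 (SE 0.138, 95% interval -0.24 to 0.44, adjusted p = 0.854, limma). The other FECH probe (chr18:55212702-55212761) read 5.06, 4.61 and 3.88 against 4.33, 4.35 and 3.81, and stood well above background on 2 of the 3 control arrays and on no DFX array. It was not called (adjusted p = 0.776, limma), and no fold is given for it, because the bound its control signal allowed, at least 1.1-fold lower with DFX, was not kept without control tumor 1. It was called lower when control tumor 3 was left out and with no other tumor left out. The FECH probes thus had opposite signs and with all 6 tumors neither was called.

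**Figure D2:**
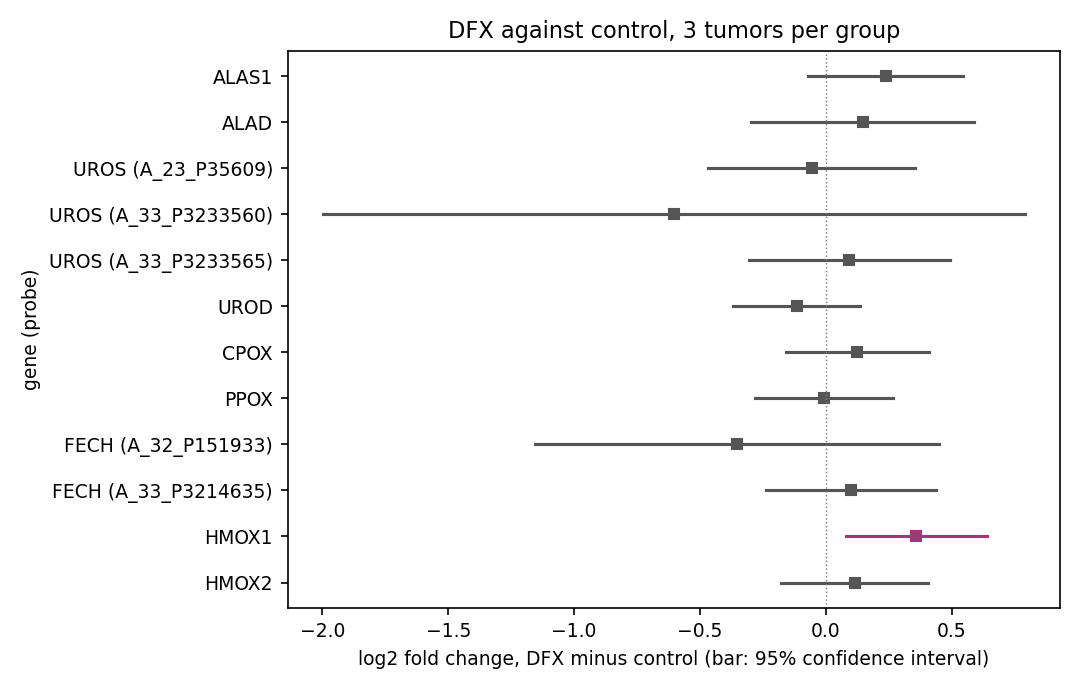
Log2 fold change, DFX minus control (x axis), of the 12 heme probes with bars for the 95% confidence interval from limma (n = 3 tumors per group). The interval of HMOX1, from 0.08 to 0.64, is the one that lies wholly above 0, the intervals of the 11 other probes include 0, and FECH A_32_P151933 is drawn at its fitted value although no DFX array read it well above background.

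HMOX1, the inducible heme oxygenase, was the gene called, and its level was 28.4% higher in DFX tumors. Its probe (chr22:35790122-35790181, plus strand) gave linear intensities of 327, 341 and 285 in control tumors 1 to 3, and 403, 425 and 392 after DFX. All DFX tumors lay above all control tumors, as did 6.34% of all tested probes. On the log2 scale the values were 8.35, 8.41 and 8.15 against 8.65, 8.73 and 8.61, with means of 8.31 ± 0.14 and 8.67 ± 0.06 (SD, n = 3). The log2 fold change of 0.36 (SE 0.115, 95% interval 0.08 to 0.64) corresponds to 1.28-fold (1.06 to 1.56), with an unadjusted limma p of 0.0197 and an adjusted p of 0.546. HMOX1 ranked 1142 by p among the 31807 probes, and its difference was larger in size than that of 79.6% of them. The call was lost with median scaling (0.25), without DFX tumor 1 (0.37) and without DFX tumor 2 (0.33), where the unadjusted limma p was 0.0964, 0.0541 and 0.0658.

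The array carries the HMOX1 probe in 10 spots, which show how far the reading itself varied within a tumor. In control tumors the spots ran from 8.17 to 8.48 (median 8.37) in tumor 1, from 8.33 to 8.50 (median 8.42) over the 9 spots used in tumor 2, and from 8.002 to 8.28 (median 8.19) in tumor 3. In DFX tumors they ran from 8.57 to 8.76 (median 8.65), from 8.61 to 8.81 (median 8.75) and from 8.48 to 8.71 (median 8.63). Of 30 DFX spots, 29 lay above the highest of 29 control spots. The SD over spots within a tumor was 0.0553 to 0.0967, against an SD between tumors of 0.14 in the control group and 0.06 in the DFX group. Spots of 1 array share its RNA, so they are a check of the reading and not replicates of the treatment.

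**Figure D3:**
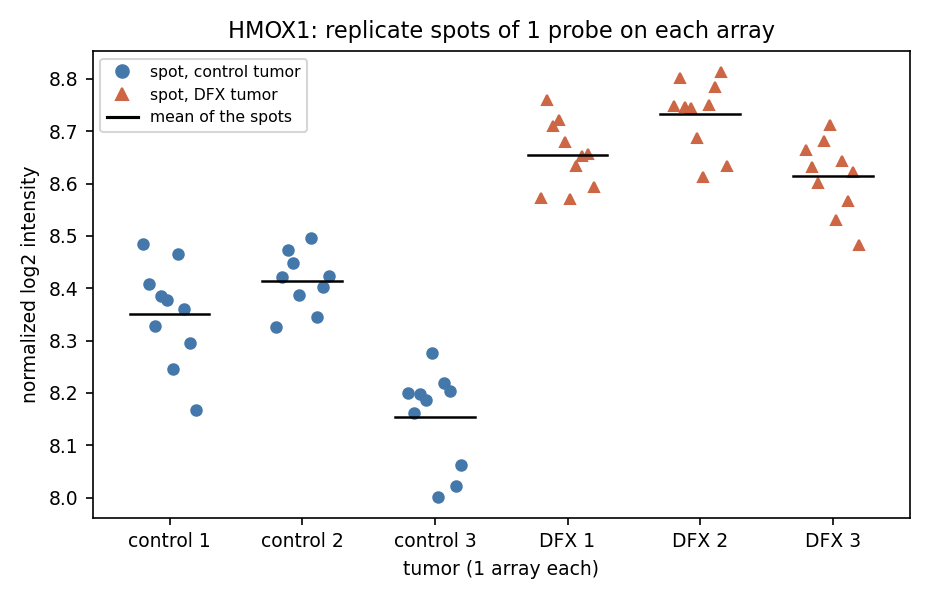
Normalized log2 intensity (y axis) of each HMOX1 spot on the array of each tumor (x axis), circles for control and triangles for DFX, with a line for the mean of the spots. Control tumor 3 is lowest, with a median spot of 8.19, and every DFX tumor has a median spot between 8.63 and 8.75.

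Slide columns 2 and 4 hold both groups, so the difference was also taken within each. HMOX1 was higher with DFX by 0.38 in column 2 (DFX tumor 2 minus control tumor 1) and by 0.46 in column 4 (DFX tumor 3 minus control tumor 3). ALAS1 differed by 0.33 and 0.16 in the same columns, and HMOX2 by 0.20 and less than 0.01. Each of these values is a single pair of tumors with no spread, so they are a description without a test.

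HMOX2, the constitutive heme oxygenase, read 12.35, 12.32 and 12.25 in control tumors and 12.46, 12.56 and 12.25 in DFX tumors (chr16:4559722-4559781, plus strand). DFX tumors 1 and 2 lay above all controls and DFX tumor 3 was level with the lowest. The log2 fold change was 0.11 (SE 0.119, 95% interval -0.18 to 0.41, adjusted p = 0.803, limma). To compare the change of the inducible form with that of the constitutive form, the HMOX1 minus HMOX2 difference was formed in each tumor, giving -4.00, -3.91 and -4.09 in control and -3.81, -3.82 and -3.64 in DFX tumors. This shows how the pair moved between tumors, not which transcript is more abundant, since the probes differ. The difference was higher by 0.25 in DFX tumors, without overlap, at a two-sided exact permutation p of 0.1, which is the smallest p that 3 against 3 tumors can give. With the raw mean signal it was 0.15, at an exact permutation p of 0.2.

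The heme genes also differed among tumors of the same group. Within the DFX group, tumor 2 was highest for 8 of the 9 genes and tumor 3 lowest for 7. Over all tested genes DFX tumor 2 was highest of its group in 34.6% and DFX tumor 3 lowest in 38.7%. CPOX ran the other way, with DFX tumor 3 highest and DFX tumor 2 lowest. In the control group control tumor 1 was highest for 5 genes, and control tumors 2 and 3 were each lowest for 4. The 9 genes share the same arrays and are not independent of each other.

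Over the 6 tumors the genes whose level ran most like HMOX1, among 18557 genes well above background on all arrays, were RNASET2 (Pearson r = 0.996), FCHO1 (0.993) and KBTBD12 (0.991). Their log2 fold changes were 0.88, 0.89 and 0.27. In all, 371 genes had r above 0.9 with HMOX1. The genes most like ALAS1 were SOLH (0.996), STARD10 (0.991) and CSF3R (0.989), with 186 genes above 0.9. These correlations describe 6 points that share a slide and hold both groups.

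Genes around the pathway were read from lists of transporters, regulators and downstream enzymes. Of the 16 genes for porphyrin, heme and iron transport, all were tested, 10 were higher and 6 lower with DFX, and none was called. Their median was 0.01. ABCG2 and FLVCR2, heme and porphyrin transporters, stood well above background on no array and are given no fold. The other 14 ranged from -0.19 (ABCB10) to 0.23 (ABCB6). The 3 genes that make heme a or attach heme to cytochrome c (COX10, COX15, HCCS) were all lower, with a median of -0.16, and none was called.

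Of the steps after heme oxygenase and its electron donor, 3 of 4 listed genes were tested, all 3 had lower means in DFX tumors, and BLVRA was called lower. BLVRA reduces biliverdin, the product of the heme oxygenases, to bilirubin. Its probe (chr7:43846842-43846901) read 13.78, 13.54 and 13.60 in control and 13.24, 13.25 and 13.32 in DFX tumors. The groups did not overlap, as in 15.5% of all tested probes in either direction. The means were 13.64 ± 0.12 and 13.27 ± 0.05 (SD, n = 3), so BLVRA fell by 22.7% with a log2 fold change of -0.37 (SE 0.11). Limma gave an unadjusted p of 0.0146 and an adjusted p of 0.526. Without DFX tumor 1 the difference was -0.36 and was no longer called, at an unadjusted p of 0.0513. BLVRB and POR differed by -0.13 and -0.09 and were not called.

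Of the heme-sensing and transcriptional regulators of HMOX1 or ALAS1, 14 of 16 were tested, 3 were higher and 11 lower, with a median of -0.05. The brightest probe of 1 gene, BACH2, was called. BACH2 is a heme-binding transcriptional repressor best known in lymphocytes. It read 5.60, 5.69 and 5.14 in control and 4.82, 4.92 and 5.04 in DFX tumors, near the median of the authors' values (4.92 on the log2 scale). The log2 fold change was -0.55 (SE 0.172), with an unadjusted limma p of 0.0187 and an adjusted p of 0.545. The call was lost in 7 of 18 alternative settings, among them the raw mean signal at -0.17 and leaving out control tumor 1 (-0.49), control tumor 2 (-0.44), DFX tumor 1 (-0.50) or DFX tumor 2 (-0.54). On a second BACH2 probe no DFX tumor stood well above background, and with the reported normalization it was at least 1.41-fold lower, called at an adjusted limma p of 0.546. Its difference was below that bound with the raw mean signal (-0.23, not called) and with normexp (-0.31), and the call was also lost with the replicate block and without control tumor 1, control tumor 2, DFX tumor 1 or DFX tumor 2. For MAFG, a small Maf partner of these factors, a dimmer probe was called lower (-0.44, adjusted p = 0.584, limma) while the brightest differed by 0.06 (adjusted p = 0.894), and that call was lost without control tumor 1, control tumor 2 or any of the 3 DFX tumors. BACH1, the main heme-responsive repressor of HMOX1, differed by -0.01, and NFE2L2, which encodes its activator NRF2, had no probe past the detection filter. These last 2 were named after their values were seen.

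Of 14 NRF2 targets beside HMOX1, 7 were higher and 7 lower, with a median of 0.02. AKR1B10, an aldo-keto reductase, was called higher on both of its probes (0.40 and 0.44, with adjusted limma p values of 0.558 and 0.526). The first call was lost with median scaling (0.28), without control tumor 1 (0.34), control tumor 3 (0.40), DFX tumor 1 (0.39) or DFX tumor 2 (0.31), and the second with median scaling (0.33) and without control tumor 1 (0.37) or DFX tumor 2 (0.37). A probe of AKR1C1, a related reductase, was called lower (-0.35, adjusted p = 0.546, limma), and its brightest probe differed by -0.30 without a call (adjusted p = 0.653). The AKR1C1 call was lost with the replicate block (-0.35) and without DFX tumor 2 (-0.32) or DFX tumor 3 (-0.34). Transcripts of this family are near-copies of each other, so its probes may share signal.

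Of the genes that scavenge heme and hemoglobin, 3 of 4 were tested, and haptoglobin (HP), which binds free hemoglobin, was called higher with DFX. HP read 10.38, 11.19 and 10.97 in control and 12.69, 12.98 and 12.51 in DFX tumors. All DFX tumors lay above all control tumors, as in 6.34% of all tested probes. Its means were 10.85 ± 0.42 and 12.73 ± 0.24 (SD, n = 3), a rise of 1.88 on the log2 scale (SE 0.245, 95% interval 1.28 to 2.48), or 3.69-fold, with an unadjusted limma p of 0.000244 and an adjusted p of 0.504. The probe lies at chr16:72094877-72094936. Haptoglobin has a near-identical neighbour, HPR, with which its probe may share signal. Hemopexin (HPX), which binds free heme, stood well above background on no array, and LRP1, a receptor for hemopexin with heme, differed by -0.17.

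**Figure D4:**
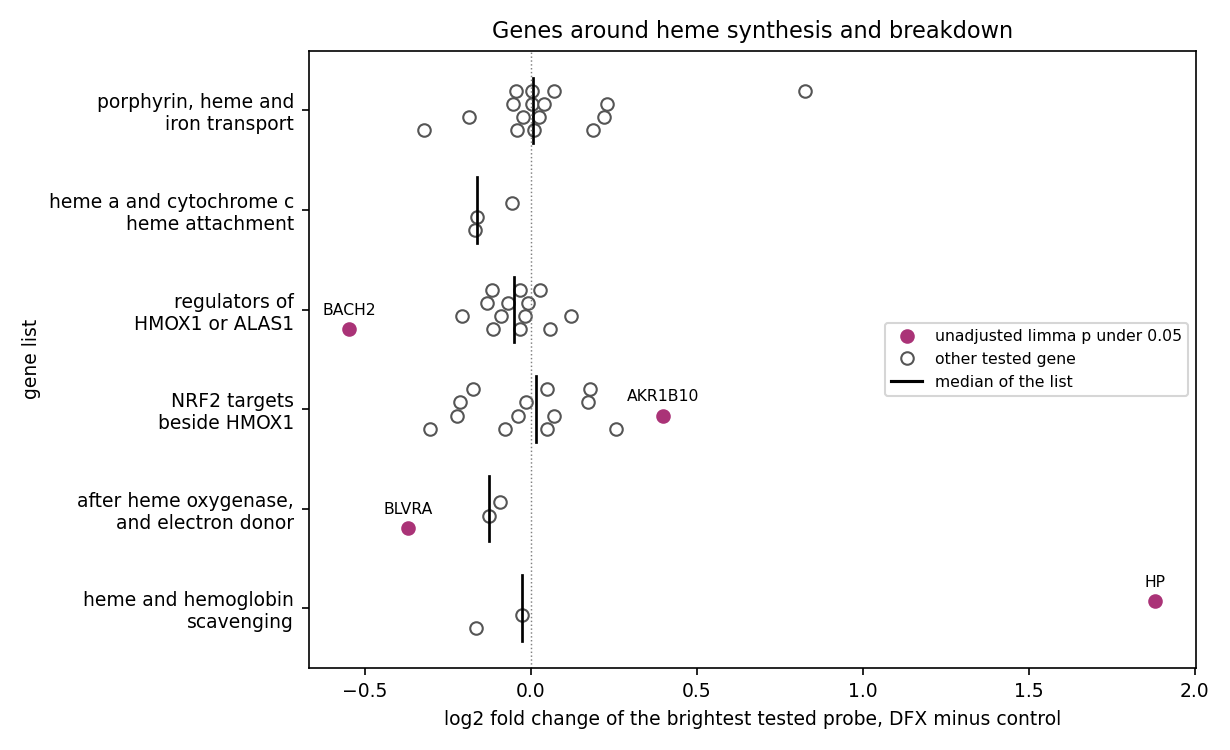
Log2 fold change, DFX minus control (x axis), of the brightest tested probe of each gene in the 6 lists (rows), with filled circles for an unadjusted limma p under 0.05 and a black line for the median of each list. The medians lie between -0.16 and 0.02, and HP at 1.88 lies furthest from 0, while ABCG2, FLVCR2 and HPX are drawn at fitted values although no array read them well above background.

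Markers of the cells a tumor could hold were read beside these results. The epithelial list, which fits the labelled line, had all 7 genes well above background on all arrays. By brightest probe 6 were higher and 1 lower with DFX, and 3 were called higher (EPCAM 0.43, KRT8 0.48, KRT18 0.27). Their adjusted limma p values were 0.514, 0.553 and 0.575. Among all tested genes 7.91% were called in either direction. Other probes of KRT8 (0.24 and -0.12) and KRT18 (0.15) were not called. The KRT8 and KRT18 calls were lost in 5 and 7 of 18 alternative settings, including without control tumor 3, DFX tumor 1 or DFX tumor 2, and without control tumor 2 for KRT8 or control tumor 1 for KRT18. The summed linear intensity of the epithelial list was 627000 to 629000 in control and 641000 to 655000 in DFX tumors. KRT19 weighs most in this sum and read 18.54, 18.44 and 18.44 in control and 18.44, 18.50 and 18.54 in DFX tumors. These levels recur because quantile normalization gives the brightest spots of every array the same values. The sum is therefore partly set by the normalization and is not a measure of epithelial content. The red cell list moved the other way, with 7 of 14 genes tested, 3 higher and 4 lower, 2 called lower (HBA2 by -1.93, HBD by -1.12), and a summed intensity of 6990 to 8240 in control and 3310 to 3510 in DFX tumors. The defining genes AHSP, GATA1, HEMGN and RHAG stood well above background on no array, and HBA2 has a near-copy in HBA1. The macrophage and leukocyte list had 10 of 14 genes tested, 5 higher and 5 lower, none called, and a sum of 3010 to 4700 against 3160 to 3540, with CD163, CSF1R and MRC1 well above background on no array. The fibroblast list had 6 of 7 genes tested, 3 higher and 3 lower, and a sum of 14800 to 25400 against 15200 to 17700. In it 1 gene was called each way (DCN -1.30, LUM 0.87, with adjusted limma p values of 0.514 and 0.584). A dim DCN probe, well above background on no DFX array, was not called (adjusted p = 0.895, limma). COL3A1, among the higher genes, was well above background on 3 arrays and was not called. The LUM call was lost in 7 of 18 alternative settings, including without control tumor 2, control tumor 3, DFX tumor 2 or DFX tumor 3, with the replicate block and with array weights (0.51). The part of the epithelial and red cell differences in the HMOX1, BLVRA and HP values was not tested.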

How the data were processed

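RNA from 6 BxPC-3 tumors (3 control, 3 DFX) was labelled with Cy3 and hybridized to 1-colour 60-mer Agilent arrays, 1 tumor per array. Per the labels, the authors read the arrays with Feature Extraction 9.5.1.1, while the file headers name 10.7.1.1. The deposited scanner files hold intensities in linear units (processed, mean and background signals, not normalized between arrays) and a p-value of each spot against its background, per the file headers. The authors' table holds quantile-normalized intensities and was used as an alternative. Its values differed from those used here by a median of 0.00925 on the log2 scale.

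The processed signal was taken as log2 intensity from the deposited files, 1398 outlier spot values were dropped, arrays were quantile-normalized with limma 3.58.1 (R 4.3.3), and spots were averaged per probe. The normalization used 58717 non-control spots. Probes with a median background p under 0.05 on all 6 arrays were tested (31807 of 50599), and 0 spots were saturated. DFX was compared with control by lmFit and eBayes. A gene was represented by its brightest tested probe. Called means an unadjusted p under 0.05. Where no array of a group read a probe well above background, a fold is quoted only as a bound, while list medians, plots and alternative settings use the fitted values. Each tumor is a separate sample in the labels, and 3 tumors per group limit the precision. The 9 genes, gene lists and tests were chosen with earlier results of these data known. Named pathway genes were those with a called probe, up to 6 per list, and the 3 genes most correlated with ALAS1 or HMOX1. Of 23810 tested gene names, 16302 matched a RefSeq symbol or synonym, including 9 of 9 heme genes. Same-numbered tumors did not deviate together (correlations of 0.0274, 0.0267 and 0.0158), so the replicate number was not used as a block. The script was tested on simulated data. Alternatives were other scalings and background corrections, other filters and tests, array weights, the replicate block, and leaving out each tumor.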

Additional observations from a re-analysis of the deposited data

How the results depend on the processing

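Over the alternatives run, HMOX1 stayed higher with DFX, from 0.25 to 0.41 on the log2 scale, and its call was kept in 15 of 18. Among the 15 is the Kruskal-Wallis test, which called 4927 probes, the same number as those whose groups did not overlap. Its call of HMOX1 therefore adds nothing to the separation of the groups. HMOX2 (3e-04 to 0.20), CPOX (0.0019 to 0.18) and the brighter FECH probe (0.0164 to 0.19) were never called and came close to 0, HMOX2 and CPOX with median scaling and FECH without DFX tumor 2. UROD ran from -0.22 to -0.08, also without a call. The number of probes called, 2675 with the settings reported, was 4927 with the Kruskal-Wallis test and 4213 with array weights, and leaving out 1 tumor gave 1952 to 2740. The number of heme probes called was 1 as reported, 0 with median scaling and 0 to 2 when leaving out 1 tumor, and the number of heme genes called was likewise 1, 0 and 0 to 2. The median log2 fold change over all tested probes was -0.10 under median scaling and -0.0044 under 75th percentile scaling. The HMOX1 minus HMOX2 difference, 0.25, ranged from 0.15 to 0.29. With the replicate block, HMOX1 differed by 0.36 (unadjusted limma p of 0.0385) and 2419 probes were called, and no heme gene gained or lost a call. The shared numbers do not pair the tumors.

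PPOX turned positive with normexp (0.0106), the raw mean signal (0.0099) and array weights (0.0073), and without control tumor 1 (0.0426), DFX tumor 1 (0.0104) or DFX tumor 3 (0.0367). UROS A_33_P3233565 turned to -0.0146 with median scaling and -0.0215 without DFX tumor 2. UROS A_23_P35609 turned to 0.0682 with array weights, 0.0137 without control tumor 3 and 0.1035 without DFX tumor 3. ALAD turned to -0.0109 without control tumor 3. Leaving out 1 tumor gave -0.0657 to 0.0426 for PPOX, -0.0215 to 0.2314 for UROS A_33_P3233565, -0.1407 to 0.1035 for UROS A_23_P35609 and -0.0109 to 0.2956 for ALAD. The cause was not tested. With 3 tumors a group and signals near background for UROS A_33_P3233560 and FECH A_32_P151933, differences of those probes were not measurable closely. The genes of the pathway and marker lists were put through the same alternatives after their values were seen.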
